A study of Mus musculus with 38 samples.

Results

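The giant ubiquitin ligases Huwe1, Herc1, Herc2, Mycbp2, Birc6 and Ubr4 were chosen by name, as 6 genes of very long coding sequence (CDS) among the 22401 genes measured in primary cortical neurons of the mouse. Ribosome profiling sequences footprints, the stretches of mRNA that a ribosome shields from nuclease digestion. In PL-Ribo-seq the biotin ligase TurboID labels proteins around it, so that streptavidin isolates the biotinylated ribosomes (the pulldown), while a small part of the same monosome fraction is kept as the input. The 38 libraries fell into 14 groups. All cultures carried a lentiviral, doxycycline-inducible TurboID, and all received cycloheximide for 2 min and then biotin, for 30 min according to the labels, where the methods give a shorter time for DHPG. TurboID-PSD95 (PSD95-TurboID in the labels) is directed to dendrites by elements of the PSD95 mRNA and protein, and Pan-TurboID has no such signal. Resting neurons and neurons depolarized with 55 mM KCl for 1 h were profiled with both constructs, input and pulldown, in 3 replicates of each of these 8 groups. Inputs and pulldowns of TurboID-PSD95 neurons exposed for 10 min to 100 µM DHPG, which activates the metabotropic glutamate receptors mGluR1 and mGluR5, had 3 replicates each. TurboID-PSD95 neurons that had been given siRNA against eIF4G2 (20 nM, 72 h), at rest or after KCl, made 4 groups of 2 replicates. For the DHPG inputs and the knockdown libraries the description in the labels names the cytosol, whereas the entry for the virus names PSD95-TurboID, and the latter was used. Before KCl or DHPG the neurons were silenced with tetrodotoxin and DL-AP5, which block sodium channels and NMDA receptors. Libraries with a control siRNA were not analysed here, and the resting libraries set against the DHPG libraries come from the KCl experiment.

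Ubiquitin is attached to proteins by a cascade in which an activating enzyme hands it to a conjugating enzyme and a ligase then selects the substrate. HECT ligases take ubiquitin onto their own catalytic cysteine first. Huwe1, Herc1 and Herc2 end in a HECT domain: Huwe1 acts on Mcl1, p53 and N-Myc, Herc1 is mutated in the tambaleante mouse, which loses cerebellar Purkinje cells, and Herc2 binds the ligase Ube3a and its own partner Neurl4. Mycbp2 is a RING ligase that works with Fbxo45 and Skp1 in axon growth and synapse formation and that lowers the axon survival enzyme Nmnat2 and the kinase Map3k12. Birc6 joins a conjugating enzyme domain to an inhibitor of apoptosis repeat and restrains caspases. Ubr4 recognizes the N-terminal residues that mark proteins for degradation and works with Kcmf1. Proteins of this size take a ribosome a long way along the message, so their mRNAs offer many positions at which a footprint can be placed.

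The CDSs measured 13137 nt in Huwe1 (81 exon segments), 14580 nt in Herc1 (77), 14511 nt in Herc2 (92), 14241 nt in Mycbp2 (85), 14622 nt in Birc6 (73) and 15543 nt in Ubr4 (106), against a median of 1101 nt over all genes, and 147 other genes had a CDS of at least 9000 nt. On mm10 the CDSs ran over chrX:151835248-151934383 (+, Huwe1), chr9:66371812-66508324 (+, Herc1), chr7:56050877-56231132 (+, Herc2), chr14:103114120-103346517 (−, Mycbp2), chr17:74528468-74702383 (+, Birc6) and chr4:139380687-139489231 (+, Ubr4). A main result concerns the first exon segments. Relative to the rest of the CDS, footprints there were rarer in pulldowns than in inputs by median. The starts of the CDSs, which lie in these segments, are printed for this reason. Except in Huwe1, they were not counted by themselves. They are the first 60 nt of the CDS as given by GENCODE transcripts of release M21 on mm10, or the first exon segment of 45 nt in Huwe1, all of them exonic and 5′ to 3′, with the start codon in capitals.
Huwe1, chrX:151835248-151835292 (+): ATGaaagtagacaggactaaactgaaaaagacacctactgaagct
Herc1, chr9:66371812-66371871 (+): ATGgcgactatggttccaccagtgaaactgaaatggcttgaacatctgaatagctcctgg
Herc2, chr7:56050877-56050936 (+): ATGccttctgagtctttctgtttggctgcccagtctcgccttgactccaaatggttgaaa
Mycbp2, chr14:103346458-103346517 (−): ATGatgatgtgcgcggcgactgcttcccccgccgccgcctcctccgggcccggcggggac
Birc6, chr17:74528468-74528527 (+): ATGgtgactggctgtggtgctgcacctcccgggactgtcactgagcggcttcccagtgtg
Ubr4, chr4:139380687-139380746 (+): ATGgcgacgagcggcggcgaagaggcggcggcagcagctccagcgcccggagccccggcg
The starts fell into a GC-rich and a GC-poor set. Over the first 300 nt, GC content was 70.7% in Mycbp2, 71.3% in Birc6 and 66% in Ubr4, and 41.7% in Huwe1, 43.3% in Herc1 and 43.7% in Herc2, while the median of 2237 genes with a CDS of at least 3000 nt was 54%. Over the whole CDS the 6 genes lay closer together, from 47.0% in Birc6 to 54.6% in Ubr4.

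Libraries held 5906281 to 35643247 counts, of which 2048601 to 14646331 fell in CDSs. Levels are given below as CPM, each library's CDS counts scaled to a fixed CDS total, and levels of different genes are compared only as CPM per kb of CDS. Replicates of a group correlated with a Spearman coefficient of 0.770 to 0.994 over 7824 genes, lowest between pulldowns 1 and 2 of depolarized TurboID-PSD95 neurons, and no pair of replicates was alike within sampling noise (chi-square per degree of freedom of 1.57 to 67.6). The summed level of 8 neuron markers was 5900 to 10567 CPM in the inputs, against 100 to 945 CPM for 6 astrocyte markers, 19.1 to 267 CPM for 6 markers of the oligodendrocyte lineage, 1.28 to 24.0 CPM for 6 microglia markers and 0 to 3.19 CPM for 3 endothelial markers. Eif4g2, the target of the siRNA, had group means of 284 and 330 CPM in knockdown inputs. Without siRNA its group means were 451 CPM in DHPG inputs and 570 to 634 CPM in the inputs of the KCl experiment. Labels do not say whether replicates came from separate animals, so that p-values measure the spread between these samples only, and in mixed cultures fewer cells of a type and less RNA per cell cannot be told apart.

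All 6 genes were well measured. Their counts per library ran from 456, in Herc2, to 17961, in Ubr4, and no exon segment of any of them was without counts. Per kb of CDS, Huwe1 had the highest mean level over the 38 libraries (53.7 CPM per kb), followed by Ubr4 (45.3), Birc6 (43.2), Mycbp2 (32.0), Herc2 (31.9) and Herc1 (27.8). These levels per kb lay above those of 77.5% to 86.8% of all 22401 genes. Huwe1 was the highest of the 6 per kb in 30 libraries, Birc6 in 7 and Ubr4 in 1, and the lowest was Herc1 in 22 libraries, Herc2 in 14 and Mycbp2 in 2.

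In resting neurons the order of the levels formed an upper and a lower trio. In resting TurboID-PSD95 inputs, Birc6 at 28.1 ± 3.04 CPM per kb (SD, n = 3), Huwe1 at 27.2 ± 5.69 and Ubr4 at 22.2 ± 2.76 overlapped, and they lay above Herc2 at 17.4 ± 1.41, Mycbp2 at 17.1 ± 0.606 and Herc1 at 15.7 ± 1.08, which overlapped among themselves. In resting TurboID-PSD95 pulldowns, levels per kb were 61.0 ± 8.55 for Huwe1, 59.4 ± 7.02 for Ubr4 and 56.8 ± 2.53 for Birc6, again without overlap with Herc2 at 45.0 ± 4.16, Mycbp2 at 40.4 ± 7.06 and Herc1 at 35.9 ± 4.29. After KCl the replicates spread more widely, with Huwe1 at 64.0 ± 25.8 CPM per kb and Herc2 at 31.8 ± 14.4 in TurboID-PSD95 pulldowns, and no neighbours in the order were apart in any of the 4 depolarized groups without knockdown. In DHPG inputs Huwe1, at 41.8 ± 0.858 CPM per kb (SD, n = 3), stood above Birc6 at 31.7 ± 0.377 and Ubr4 at 31.6 ± 0.499. The trios did not hold in DHPG pulldowns, where Birc6, at 61.1 ± 2.49, came after Herc2 at 71.2 ± 2.94 and Mycbp2 at 66.7 ± 3.86. In depolarized knockdown pulldowns Birc6 at 58.2 ± 0.491 and Mycbp2 at 55.3 ± 5.59 (SD, n = 2) overlapped. Herc2 changed its place: in resting inputs it was the fourth of the 6 per kb, and in depolarized knockdown inputs it was the lowest, at 14.4 ± 0.957 CPM per kb (SD, n = 2).

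**Figure D1:**
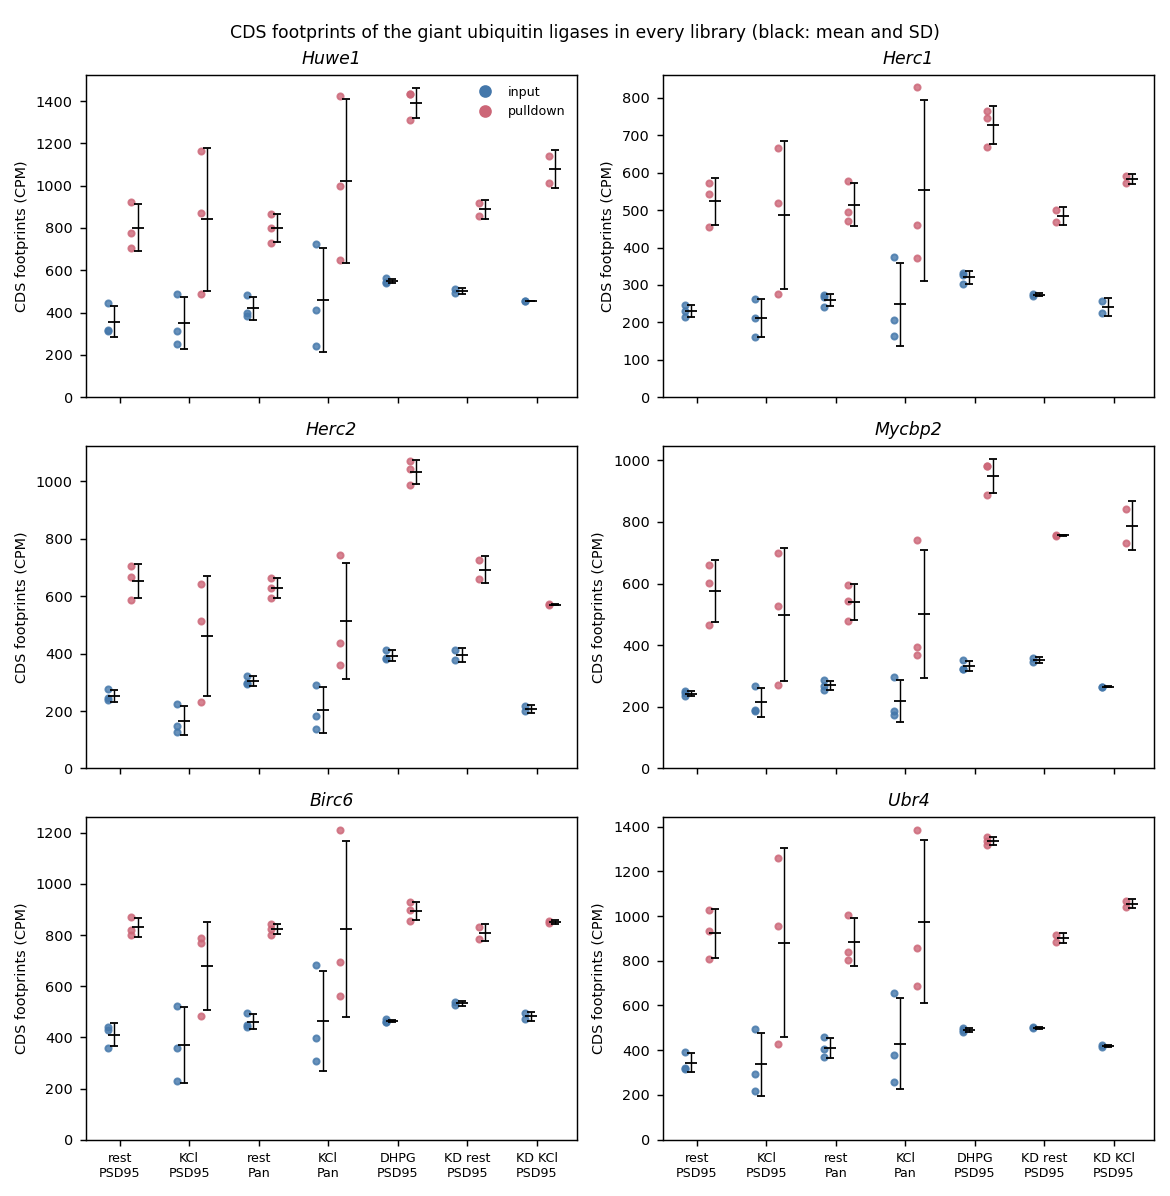
CDS level of each gene in CPM (y axis) in every library, by condition (x axis), with inputs in blue, pulldowns in red and the mean and SD of each group in black. In all 6 panels the mean of the pulldowns lies above the mean of the inputs of the same condition, and replicate 2 is the lowest of the depolarized TurboID-PSD95 pulldowns.

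The first question of the design is which mRNAs biotinylated ribosomes translated more often than the ribosomes of the whole lysate. All 6 genes had a higher CPM in the pulldown than in the input of the same number in 19 of 19 pairs. These pairs pool the KCl, DHPG and knockdown experiments. The share of all genes, or of other long genes, that were higher in every pair was not counted. The lowest, median and highest ratios were 1.74, 2.23 and 2.79 for Huwe1, and 1.69, 2.22 and 2.55 for Herc1. They were 1.60, 2.54 and 3.48 for Herc2, and 1.44, 2.47 and 3.17 for Mycbp2. Birc6, with 1.50, 1.82 and 2.28, had the lowest median of the 6, and Ubr4 had 1.76, 2.53 and 3.24. Together the 6 genes took 0.118% to 0.302% of CDS counts in the inputs (median 0.207%) and 0.218% to 0.650% in the pulldowns (median 0.455%). Summed neuron markers had a median of 8136 CPM in the inputs and 7420 CPM in the pulldowns. For the oligodendrocyte lineage the medians were 93.3 and 50.8 CPM, and for astrocytes 568 and 554 CPM. The part of cell types in the ratios was not tested.

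In resting TurboID-PSD95 neurons, Huwe1 had 444, 318 and 311 CPM in inputs 1 to 3 and 925, 705 and 775 CPM in the pulldowns. Herc1 had 245, 214 and 229 CPM in the inputs and 574, 454 and 544 CPM in the pulldowns, and Herc2 had 276, 245 and 237 CPM against 705, 587 and 668 CPM. For these 3 HECT ligases every pulldown lay above every input. Mycbp2 had 243, 251 and 234 CPM in the inputs and 602, 464 and 660 CPM in the pulldowns. Birc6 had 430, 359 and 441 CPM against 799, 820 and 871 CPM, and Ubr4 had 394, 318 and 322 CPM against 1026, 809 and 933 CPM. The groups did not overlap in 6 of 6 genes, and 20.3% of all genes tested were higher in the pulldown without overlap.

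By edgeR's quasi-likelihood test, 6 of the 6 genes were higher in the resting TurboID-PSD95 pulldown, where 25% of 13019 genes were called in either direction and 11.5% were higher. The log2 difference was 1.45 ± 0.37 (SE, adjusted p = 0.0102) for Ubr4, 1.40 ± 0.33 (adjusted p = 0.00626) for Herc2, 1.27 ± 0.31 (adjusted p = 0.00693) for Mycbp2, 1.22 ± 0.33 (adjusted p = 0.0116) for Herc1, 1.20 ± 0.36 (adjusted p = 0.0207) for Huwe1 and 1.05 ± 0.32 (adjusted p = 0.0192) for Birc6. On a linear scale the difference was 2.08-fold for Birc6 to 2.74-fold for Ubr4. Without replicate 3 in the KCl experiment, 0 of the 6 and 0 of 13213 genes were called by edgeR in this comparison, with 2821 genes at an unadjusted p under 0.05.

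Long messages as a class stood higher in pulldowns. The median log2 ratio of pulldown over input went from −0.73 in 4314 genes with a CDS of up to 1000 nt to 0.65 in 114 genes above 9000 nt. Of 110 other genes with a CDS of at least 9000 nt, 38 were higher and 0 lower in the resting TurboID-PSD95 pulldown by edgeR, against 11.5% of all genes higher, with a median log2 difference of 0.82, against a median of 1.25 for the 6 genes and of −0.05 for all genes tested. Ubr4 lay above 97 of these 110 genes, Herc2 above 95, Mycbp2 above 83, Huwe1 and Herc1 above 79 each, and Birc6 above 64. With the trend over CDS length taken out, the log2 differences were 0.67 for Ubr4, 0.64 for Herc2, 0.51 for Mycbp2, 0.46 for Huwe1, 0.46 for Herc1 and 0.29 for Birc6, and Ubr4 and Herc2 were still called.

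Depolarized TurboID-PSD95 neurons gave the same direction in 6 of 6 genes with wider spread. Huwe1 had 487, 251 and 312 CPM in the inputs and 1164, 489 and 871 CPM in the pulldowns. Herc2 had 223, 128 and 147 CPM in the inputs against 641, 232 and 512 CPM, and Birc6 had 524, 229 and 357 CPM against 790, 482 and 769 CPM. The second replicate was the lowest in both fractions for each of these, and the fractions overlapped in Birc6 but not in Huwe1 or Herc2. In 4 of the 6, all but Birc6 and Ubr4, every pulldown lay above every input, against 12.2% of all genes. By edgeR, 5 of 6 genes were higher, against 8.21% of all genes (12.6% in either direction). Their log2 differences ran from 1.25 in Herc1 to 1.53 in Herc2, and Birc6, at 0.92 ± 0.32 (SE), missed the threshold (adjusted p = 0.0547). With the length trend taken out, 1 of 6, Herc2 at 0.66 (adjusted p = 0.0339), was called. With each input and the pulldown of the same number as a block (the replicate block), edgeR called 6 of 6, where 34.6% of all genes were called. Birc6 was then at 0.97 (adjusted p = 9.45e-07). Without replicate 3 it was 0 of 6 and 3 of 13213 genes.

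Pan-TurboID, which labels ribosomes throughout the cell, gave the same direction in 6 of 6 genes. In resting Pan-TurboID neurons Huwe1 had 483, 397 and 383 CPM in the inputs and 866, 802 and 730 CPM in the pulldowns. Ubr4 had 459, 406 and 369 CPM in the inputs and 1006, 841 and 803 CPM in the pulldowns. Pulldowns lay above inputs without overlap in 6 of 6 genes, against 18.9% of all genes. By edgeR 3 of 6 genes were higher, with 4.57% of all genes higher and 9.62% called in either direction. Herc2 differed by 1.09 on the log2 scale (adjusted p = 0.0403), Herc1 by 1.03 (adjusted p = 0.0463) and Mycbp2 by 1.04 (adjusted p = 0.037). Ubr4 at 1.15 (adjusted p = 0.0518), Huwe1 at 0.97 (adjusted p = 0.0805) and Birc6 at 0.88 (adjusted p = 0.07) did not pass, and 6 of 6 passed with the replicate block, where 32.9% of all genes did. Of the 6 genes, 6 passed at rest without replicate 1, as did 1225 of 12967 genes, and 0 of the 6 and 0 of all genes passed by edgeR without replicate 2 or 3, with 2464 and 1937 genes at an unadjusted p under 0.05. In depolarized Pan-TurboID neurons 5 of 6 were higher by edgeR, against 5.15% of all genes (8.79% in either direction), led by Herc2 at 1.39 on the log2 scale (adjusted p = 0.0207), and Birc6 at 0.89 (adjusted p = 0.0695) again did not pass. With the block 6 of 6 passed in depolarized Pan-TurboID neurons, with 32% of all genes called, and without replicate 2 or 3 it was 0 of 6 and 0 of all genes by edgeR, with 2804 and 2171 genes at an unadjusted p under 0.05. Pulldowns lay above inputs without overlap in Herc2, Mycbp2 and Ubr4, 3 of 6 genes, against 14% of all genes. With the length trend taken out, 0 of 6 were called by edgeR in resting Pan-TurboID neurons, and 1 of 6, Herc2 at 0.70 (adjusted p = 0.0387), in depolarized ones.

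The difference between the constructs was tested directly. The log2 ratio of pulldown over input, averaged over resting and depolarized neurons, was larger with TurboID-PSD95 than with Pan-TurboID by 0.25 in Ubr4, 0.22 in Herc2, 0.17 in Huwe1, 0.12 in Mycbp2, 0.11 in Herc1 and 0.10 in Birc6, with SEs of 0.30 to 0.37. By edgeR 0 of the 6 passed (adjusted p = 1 for each), and only Dlg4, the gene of PSD95 itself, passed among all genes (0.00768%), with 169 genes at an unadjusted p under 0.05. Dlg4 had group means of 1140 to 2344 CPM in TurboID-PSD95 pulldowns and of 21.7 to 43.8 CPM in Pan-TurboID pulldowns. In the inputs they were 119 to 159 CPM and 24.5 to 54.2 CPM. According to the methods the TurboID-PSD95 construct itself carries PSD95 sequence, amplified from rat, and PSD95 UTRs. Footprints on the construct and on the neurons' own Dlg4 mRNA were not told apart. The SEs of the 6 genes leave room for a difference of either sign in each.

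**Figure D2:**
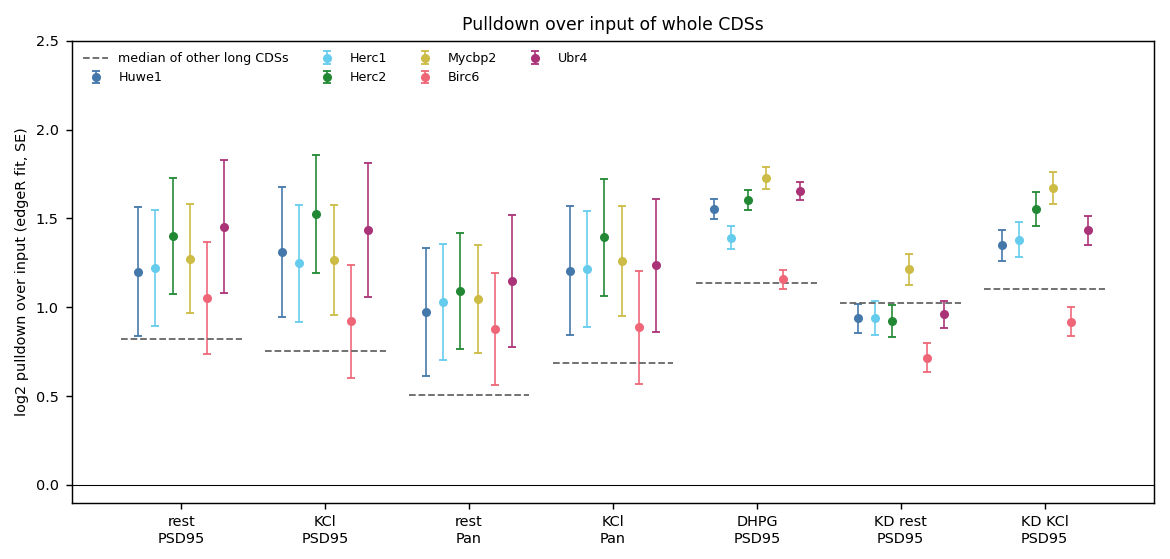
Log2 difference of pulldown over input by edgeR (y axis) for each gene (points, with SE bars) in 7 comparisons, with the median of the other genes of CDS at least 9000 nt as a dashed line. All points lie above 0, and Birc6 is the lowest of the 6 in each comparison. With the trend over CDS length taken out, Birc6 turned below 0 under DHPG and after KCl with knockdown, and 5 of the 6 genes did in resting knockdown neurons.

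In DHPG-treated neurons the separation was wide and the replicates lay close together. Huwe1 had 545, 540 and 562 CPM in the inputs and 1434, 1432 and 1311 CPM in the pulldowns. Mycbp2 had 321, 323 and 352 CPM in the inputs and 982, 980 and 886 CPM in the pulldowns, and Birc6 had 460, 462 and 470 CPM against 899, 928 and 855 CPM. Pulldowns lay above inputs without overlap in 6 of 6 genes, against 34.3% of all genes. By edgeR 6 of 6 were higher, in a comparison in which 79.8% of 12273 genes were called and 40.5% were higher. Mycbp2 had the largest log2 difference, at 1.73 ± 0.062 (SE, adjusted p = 1.16e-13), followed by Ubr4 at 1.65 ± 0.052 (adjusted p = 4.5e-14), Herc2 at 1.60, Huwe1 at 1.55, Herc1 at 1.39 and Birc6 at 1.16 ± 0.055 (adjusted p = 1.99e-12). With the trend over CDS length taken out, 5 genes were at 0.13 to 0.47, and Birc6 turned to −0.11. Mycbp2 lay above 94 of 106 other long genes and Birc6 above 55.

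With eIF4G2 knocked down, Mycbp2 was again the gene with the largest ratio. At rest Mycbp2 had 346 and 358 CPM in the inputs and 754 and 758 CPM in the pulldowns. Herc1 had 271 and 277 CPM in the inputs and 502 and 468 CPM in the pulldowns, and Huwe1 had 513 and 491 CPM against 920 and 857 CPM. The fractions did not overlap in 6 of 6 genes, against 32.1% of all genes that were higher without overlap. By edgeR 6 of 6 were higher, against 22.1% of 12239 genes (45.5% in either direction). Mycbp2 reached 1.21 ± 0.087 on the log2 scale (SE), while Ubr4 was at 0.96, Huwe1 at 0.94, Herc1 at 0.94, Herc2 at 0.92 and Birc6 at 0.72, with adjusted p-values of 3.17e-11 to 6.56e-08. With the length trend taken out, Mycbp2 was at 0.02 and the other 5 turned below 0, from −0.23 in Huwe1 (adjusted p = 0.0425) to −0.48 in Birc6 (adjusted p = 4.04e-05), and all 5 were then called lower by edgeR. By the uncorrected ratio, 45 of 107 other long genes lay below Huwe1, Herc1, Herc2 and Ubr4 each. After KCl 6 of 6 were higher, against 24% of all genes (48.8% in either direction), from 0.92 in Birc6 to 1.55 in Herc2 and 1.67 in Mycbp2, without overlap in 6 of 6, against 31.6% of all genes. There the length-corrected values were 0.47 for Mycbp2, 0.35 for Herc2 and −0.29 for Birc6.

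Other ligases and the known partners and substrates were counted from lists. Of 23 other HECT ligases, 9 were higher and 0 lower in the resting TurboID-PSD95 pulldown by edgeR (median log2 difference 0.43, all genes −0.05), where 11.5% of all genes were higher and 1760 of 13019 lower. They were led by Ube3b, a relative of the Angelman syndrome ligase Ube3a, at 1.23 (adjusted p = 0.0076), and Herc3, a small relative of Herc1 and Herc2, at 1.13 (adjusted p = 0.0106). Of 8 UBR box and inhibitor of apoptosis relatives, 3 were higher and 0 lower (median −0.15), among them the N-recognins Ubr2 at 1.25 and Ubr1 at 1.14. Of 8 partners, the ubiquitin-activating enzyme Uba1 was higher at 0.74 and the adaptor Skp1a lower at −0.97. Of 11 substrates, 3 were higher and 2 lower (median −0.25): Dvl1, a Wnt pathway protein, was at 1.33, Tsc2, a brake on mTORC1, at 0.96, the survival factor Mcl1 at −1.04 and Mycn at −1.17. Under DHPG, where 40.5% of all genes were higher and 4821 of 12273 lower, calls were 18 higher and 1 lower of 22 other HECT ligases (median 0.86, all genes 0.05), led by Hecw1 at 1.39 and Hectd4 at 1.18, with Nedd4 lower at −0.34, and with 4 higher and 6 lower of the substrates, from Tsc2 at 1.56 to Mycn at −1.39.

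The ratio was not even along the message. Whole exon segments were placed by their midpoints into windows that end 300, 900 and 3000 nt from the start codon. In the first window, which held 274 to 351 nt, footprints were fewer per CDS total in the pulldown. The log2 ratio there was −1.80 ± 0.73 (SD over 19 pairs) in Ubr4, −1.78 ± 0.66 in Birc6 and −1.35 ± 0.87 in Mycbp2, below 0 in 19 of 19 pairs in each. It was −1.42 ± 0.83 in Huwe1 and −1.05 ± 0.53 in Herc2, below 0 in 18 of 19 pairs in each. The first exon segment of Herc1, of 930 nt, fell by its midpoint into the second window. There Herc1 was at −0.32 ± 0.47, below 0 in 14 of 19 pairs. Beyond 3000 nt all 6 genes were higher in the pulldown in 19 of 19 pairs, with mean log2 ratios of 1.18 in Huwe1, 1.19 in Birc6, 1.36 in Herc1, 1.47 in Herc2, 1.47 in Mycbp2 and 1.50 in Ubr4. Other genes showed the same turn: their median was −0.94 in the first window (1387 genes) and 0.94 beyond 3000 nt (1622 genes).

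Exon segments were also placed by their midpoints into 10 bins along the CDS, of about equal length, and the shapes of the 6 genes differed. Birc6 went from −0.51 in the first bin to 0.66 in the second and 0.22 in the third, and then through 1.01, 1.14 and 1.28 to 1.66 in the last. Huwe1 reached 1.41 in its second bin and did not end higher, with 1.36 in the fifth, 1.02 in the eighth and 1.19 in the last. Ubr4 went from −0.08 to 1.11 and then slowly to 1.63, and Mycbp2 went from −0.12 to 1.29 and ended at 2.00. In its seventh bin, which is the single segment 58 of 1644 nt, Mycbp2 dipped to 1.04 ± 0.76 (SD over 19 pairs), with a mean of 0.56 in the 12 pairs of the KCl experiment and of 1.88 both under DHPG and with knockdown. Herc1 and Herc2 went from 0.16 and 0.04 to 1.22 and 1.52 in the second bin and ended at 1.27 and 1.50.

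**Figure D3:**
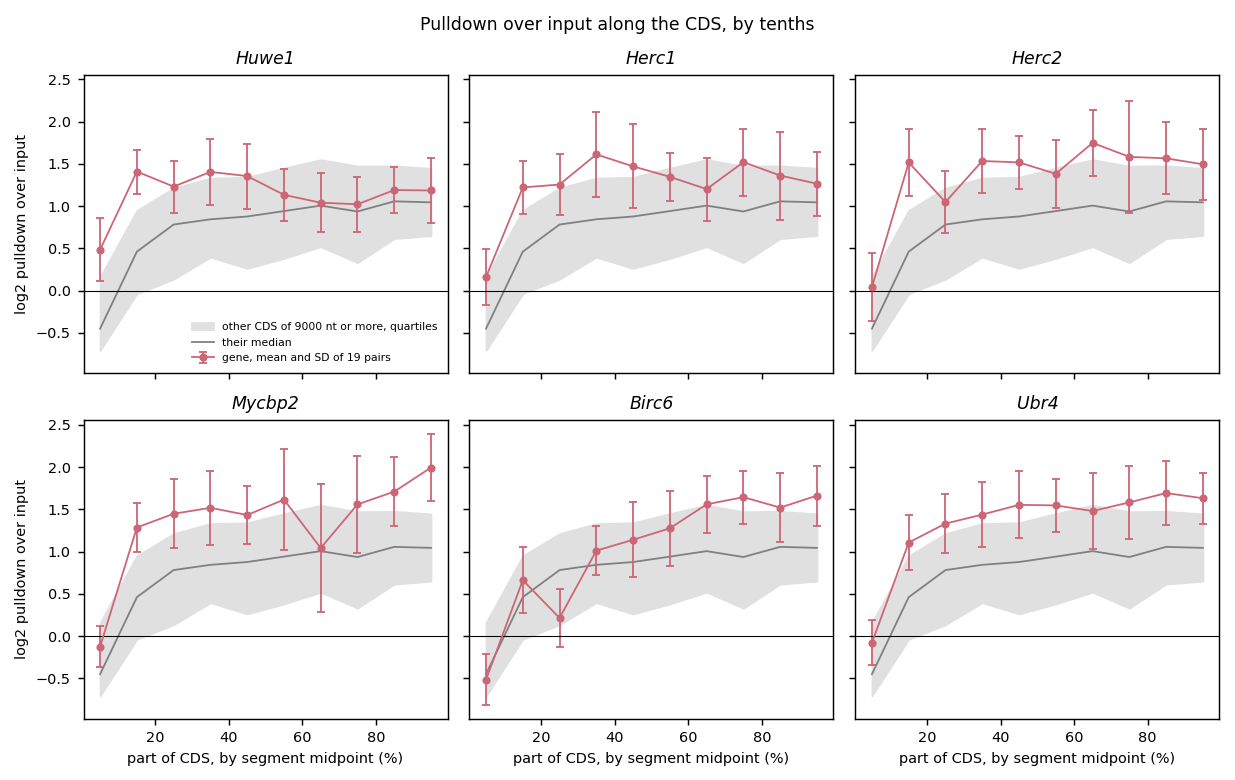
Log2 ratio of pulldown over input (y axis) in 10 bins from start to stop codon (x axis, part of the CDS in % of its length, with whole exon segments placed by midpoint) for each gene, as mean and SD over 19 pairs, with the median and quartiles of other genes of CDS at least 9000 nt in grey. The first bin is the lowest in every panel, Birc6 goes up to 1.66 and Huwe1 goes from 1.41 in the second bin to 1.19 in the last.

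The slope was tested as the log2 ratio of pulldown over input in the last of 3 parts of about equal length of the CDS minus that in the first. In resting TurboID-PSD95 neurons it was 1.30 in Birc6 (adjusted p = 0.0173) and 0.83 in Ubr4 (adjusted p = 0.0419) by edgeR, so that 2 of 6 passed, against 32.5% of 1718 genes in this direction (32.9% in either), with a median of 1.08 over all genes. Mycbp2 at 0.63, Herc2 at 0.49, Herc1 at 0.43 and Huwe1 at 0.04 did not pass, and with the replicate block Mycbp2 (adjusted p = 0.0117) and Herc2 (adjusted p = 0.0487) passed too, where 45.5% of all genes did. In depolarized TurboID-PSD95 neurons Birc6 at 1.57, Ubr4 at 1.02 and Mycbp2 at 1.01 passed, 3 of 6 against 30.6% of all genes, and 5 of 6, all but Huwe1, passed with the block (46.4% of all genes). In resting Pan-TurboID neurons 0 of 6 passed by edgeR, where 11.6% of all genes did and 556 had an unadjusted p under 0.05. Birc6 was then at 1.20 (adjusted p = 0.051), and with the block Birc6 (adjusted p = 6.12e-07) and Ubr4 (adjusted p = 0.0132) passed, where 35.3% of all genes did. In depolarized Pan-TurboID neurons Birc6 at 1.36, Mycbp2 at 1.16 and Ubr4 at 0.87 passed, 3 of 6 against 23.1% in this direction (23.3% in either), and Herc1 passed too with the block (adjusted p = 0.00916), where 42.1% of all genes did. With each of the 3 parts scaled by its own total, which takes out the slope that all genes share, Ubr4 turned to −0.23 at rest and −0.064 after KCl with TurboID-PSD95 and to −0.079 after KCl with Pan-TurboID, and Mycbp2 to −0.071 after KCl with TurboID-PSD95. Birc6 stayed above 0 but was no longer called, at 0.23 at rest (adjusted p = 0.623) and 0.48 after KCl (adjusted p = 0.268) with TurboID-PSD95 and at 0.42 after KCl with Pan-TurboID (adjusted p = 0.377). The 1 gene of the 6 called on this scale was Huwe1, as lower, at −1.03 at rest (adjusted p = 0.0283) and −1.15 after KCl (adjusted p = 0.0277) with TurboID-PSD95. Without replicate 3, 0 of the 6 passed in these 4 comparisons by edgeR, where 9, 12, 0 and 2 of 1767 genes did and 436, 374, 245 and 345 had an unadjusted p under 0.05.

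In the other experiments Birc6 again had the largest and Huwe1 the smallest slope of the 6. Under DHPG 5 of 6 genes had a positive slope, from 0.59 in Ubr4 to 1.53 in Birc6, where 84% of 1571 genes were called in this direction (86.1% in either) and the median was 1.48, and Huwe1 at −0.10 did not pass. In resting knockdown neurons 4 of 6 passed, with 1.60 in Birc6, 0.82 in Herc2, 0.81 in Mycbp2 and 0.62 in Ubr4, against 54% of 1644 genes in this direction (55.5% in either), and Herc1 at 0.43 (adjusted p = 0.0575, with the block 0.0427) and Huwe1 at 0.07 did not. In depolarized knockdown neurons Birc6 reached 2.07, Mycbp2 0.83, Herc2 0.78 and Ubr4 0.76, and Huwe1 had a slope of the other sign, at −0.37 ± 0.15 (SE, adjusted p = 0.039), so that 4 of 6 passed as higher, against 51.8% of all genes, and 1 as lower, against 1.7% (53.5% in either direction). With each part scaled by its own total, the called slopes of Herc2, Mycbp2 and Ubr4 turned below 0 in all 3 of these comparisons and that of Herc1 did under DHPG, while Birc6 stayed above 0, at 0.012 under DHPG, 0.20 in resting and 0.64 in depolarized knockdown neurons, and was still called in the last. The other 5 genes were then called lower in each of these 3 comparisons, with Huwe1 the lowest, at −1.62, −1.32 and −1.80. Among other genes of CDS at least 9000 nt, Birc6 lay above 69 to 83 of 96 to 103 in the 7 comparisons and Huwe1 above 7 to 20. The ligases Trip12 and Ube3c of the HECT list had slopes of 2.56 and 2.46 in resting TurboID-PSD95 neurons.

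The first exon segment, which holds the start codon and the sequences printed above, showed the contrast as well. The density of footprints there, divided by the density in the rest of the CDS, had a median of 5.70 in the 19 inputs (range 2.06 to 15.0) and of 0.599 in the 19 pulldowns (0.301 to 4.49) in Birc6. In Mycbp2 the medians were 4.59 in the inputs (2.40 to 11.1) and 0.575 in the pulldowns (0.103 to 5.21), and in Ubr4 they were 4.25 (1.82 to 21.1) and 0.327 (0.154 to 3.73). The input exceeded its own pulldown in 19 of 19 pairs in each of these GC-rich starts. Herc2 had medians of 3.22 and 0.577 and Herc1 of 2.68 and 1.08, with the input higher in 19 of 19 pairs. In Huwe1, whose first segment is only 45 nt long and gave 111 counts over all inputs and 68 over all pulldowns, the medians were 0.510 and 0.0495 and the input was higher in 16 of 19 pairs. Footprints were counted at their 5′ ends with no offset, so that those of ribosomes on the first codons fall into the 5′ UTR.

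**Figure D4:**
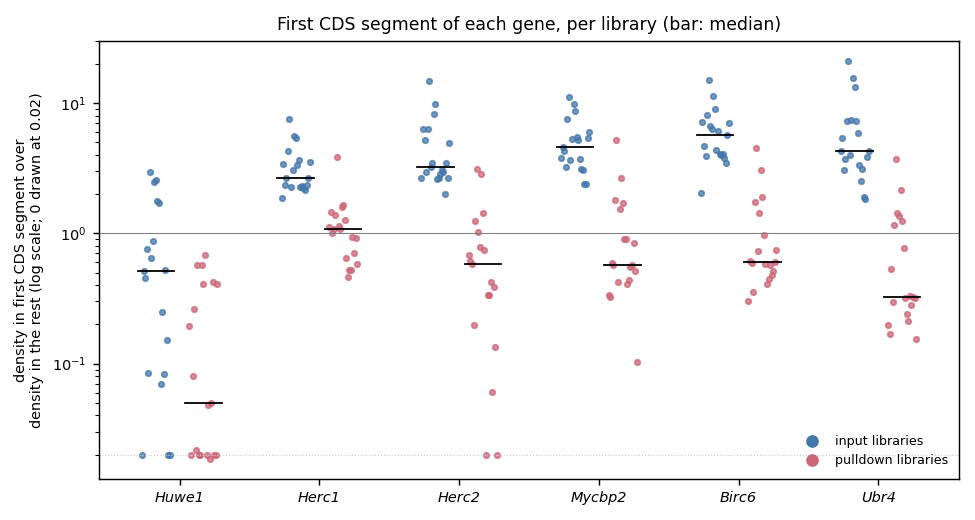
Footprint density in the first CDS segment divided by the density in the rest of the CDS (y axis, log scale, 0 drawn at 0.02) in every library, with inputs in blue, pulldowns in red and the median as a bar. The median of the inputs lies above that of the pulldowns in all 6 genes, with 5.70 and 0.599 in Birc6 and the lowest values in Huwe1.

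The 5′ UTRs moved like the first segment. They were 28 nt long in Ubr4 and 119 to 408 nt in the other 5 genes. Without an offset, their counts include footprints of ribosomes on the first codons. The density of footprints in the 5′ UTR over that in the CDS had a median of 13.8 in the inputs and 1.92 in the pulldowns in Herc1, of 7.57 and 1.12 in Ubr4, of 7.20 and 1.05 in Mycbp2 and of 5.20 and 0.791 in Huwe1. Herc2 had 2.69 and 0.477, and Birc6, at 0.682 and 0.101, was alone in having a sparser 5′ UTR than CDS in the inputs by median. The input was higher in 19 of 19 pairs in 5 genes and in 18 of 19 in Herc2. The 3′ UTRs held 7 to 59 counts per gene over all 38 libraries. Within the CDS, the segments with the largest share of a gene's counts were segment 58 of Mycbp2 (1644 nt, 12.3%) and segment 9 of Birc6 (1398 nt, 11.2%). Each is also the longest segment of its gene.

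A further question of the design is what 1 h of KCl does. In the inputs of both constructs 0 of 6 genes passed by edgeR, where 15.4% of 13019 genes did. Herc2 came nearest. It had 276, 245 and 237 CPM in resting TurboID-PSD95 inputs and 223, 128 and 147 CPM after KCl, and 323, 293 and 298 CPM in resting Pan-TurboID inputs and 292, 183 and 137 CPM after KCl. Depolarized Herc2 inputs lay below all resting ones of the same construct, with Pan-TurboID only by 291.7 against 292.6 CPM. The share of all genes with such a separation was not counted. Over both constructs, which the test pooled, the groups overlapped. The log2 difference of Herc2 was −0.55 ± 0.23 (SE, adjusted p = 0.11). Without replicate 1 Herc2 was the 1 gene of 6 that passed, at −0.87 ± 0.19 (SE, adjusted p = 0.0033), where 2095 of 12967 genes did, and without replicate 2 or 3 it was at −0.38 and −0.40. With the replicate number as a block Herc2 passed as well, at −0.61 ± 0.18 (SE, adjusted p = 0.0209), the 1 of 6 that did, where 19.5% of all genes passed. Mycbp2 was at −0.20 ± 0.21, Herc1 at −0.04 ± 0.23, Birc6 at −0.02 ± 0.22, Ubr4 at 0.07 ± 0.26 and Huwe1 at 0.10 ± 0.25. In the pulldowns 0 of 6 passed with TurboID-PSD95 (6.59% of all genes) and 0 of 6 with Pan-TurboID (5.03%, or 7.56% with the block), with Herc2 at −0.46 and −0.21. Summed neuron markers were 7656 to 8506 CPM in resting TurboID-PSD95 inputs and 5900 to 7680 CPM in depolarized ones. With Pan-TurboID the inputs had 7888 to 8630 CPM at rest and 6798 to 10567 CPM after KCl. Their part in the values of Herc2 was not tested.

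In knockdown neurons, whose replicates lay closer, Herc2 fell after KCl. Its inputs had 378 and 412 CPM at rest and 218 and 199 CPM after KCl, and the log2 difference was −0.90 ± 0.094 (SE, adjusted p = 8.88e-08) by edgeR. Mycbp2 fell by 0.40 ± 0.089 on the log2 scale (adjusted p = 0.00205) from 346 and 358 CPM to 264 and 266 CPM. Ubr4 fell by 0.24 ± 0.079 (adjusted p = 0.0328) from 504 and 497 CPM to 416 and 423 CPM, and missed the threshold with the length trend taken out (−0.18, adjusted p = 0.148). These were 3 of 6 genes, against 10.3% of 12239 genes lower and 19.3% called in either direction, and Huwe1 at −0.13, Birc6 at −0.13 and Herc1 at −0.17 were not called. Depolarized inputs lay below resting ones without overlap in 6 of 6 genes, and in 32.8% of all genes. Herc2 lay above 5 of 107 other long genes in this comparison, of which 15 were higher and 24 lower. Summed neuron markers were 8136 to 8340 CPM in resting and 6256 to 6451 CPM in depolarized knockdown inputs, and summed astrocyte markers 569 to 582 CPM and 783 to 795 CPM, and their part in the result was not tested.

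In the pulldowns of the same knockdown neurons the calls went in both directions. Huwe1 rose from 920 and 857 CPM to 1141 and 1014 CPM, a log2 difference of 0.28 ± 0.084 (SE, adjusted p = 0.0158). Herc1 rose by 0.27 ± 0.093 (adjusted p = 0.042) from 502 and 468 CPM to 573 and 591 CPM, and Ubr4 by 0.23 ± 0.078 (adjusted p = 0.0337) from 885 and 916 CPM to 1040 and 1069 CPM. Herc2 fell by 0.28 ± 0.091 (adjusted p = 0.0298) from 725 and 660 CPM to 570 and 571 CPM. The groups did not overlap in these 4 genes or in Birc6, nor did they in 55.3% of all genes. They were 4 of 6, with 10.2% of all genes higher and 12% lower (22.2% in either direction), and Mycbp2 at 0.06 and Birc6 at 0.08 were not called. When single libraries of the knockdown experiment were left out, 0 to 4 of the 6 passed, with 0 without depolarized pulldown 1 (2304 of 12938 genes called), and Herc2 missed the threshold with the length trend taken out (adjusted p = 0.0936). Summed neuron markers were 6626 and 6452 CPM in resting and 4905 and 4957 CPM in depolarized knockdown pulldowns, and summed astrocyte markers 554 and 443 CPM and 840 and 625 CPM, and their part in these changes was not tested.

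Over all 8 numbered pairs of a resting and a depolarized input, with and without knockdown, Herc2 was lower after KCl in 8 of 8, with a median log2 ratio of −0.74 (−1.12 to −0.15). Mycbp2, Birc6, Herc1 and Ubr4 were lower in 6 of 8 each, with medians of −0.40, −0.15, −0.17 and −0.18, and Huwe1 in 4 of 8 (median −0.06). In the pulldowns Herc2 was lower in 7 of 8 pairs (median −0.36) and Huwe1 in 2 of 8 (median 0.28). The shares of all genes with such pair counts were not counted. The lower Herc2 level was spread over the CDS. Of its 91 segments with at least 10 counts, 79 were lower in the depolarized inputs without knockdown and 83 with it. Without and with knockdown, 51 of 84 and 61 of 81 were lower in Mycbp2, and 59 of 106 and 76 of 106 in Ubr4. In Birc6 they were 43 of 73 and 50 of 72, in Herc1 50 of 77 and 46 of 76, and in Huwe1 37 of 81 and 44 of 79. Segments of a gene share their libraries and are not replicates.

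**Figure D5:**
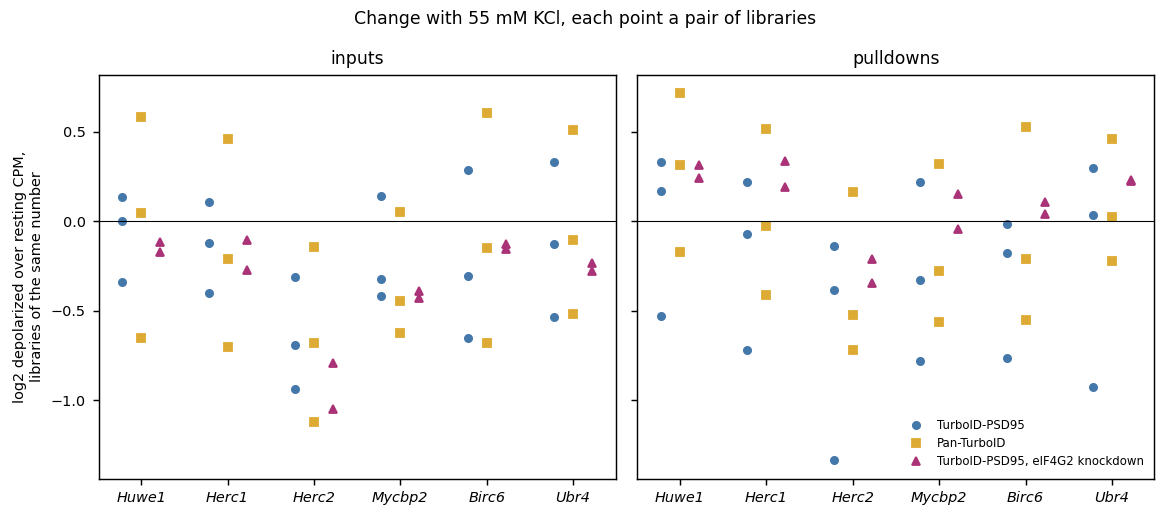
Log2 ratio of depolarized over resting CPM (y axis) in pairs of libraries with the same number, for inputs and pulldowns, with markers for TurboID-PSD95, Pan-TurboID and knockdown. Herc2 lies below 0 in 8 of 8 input pairs and 7 of 8 pulldown pairs, and Huwe1 in 4 and 2.

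The change in the pulldown ratio itself was tested for TurboID-PSD95 without knockdown. The log2 ratio of pulldown over input differed between depolarized and resting neurons by −0.13 to 0.13 in the 6 genes, with SEs of 0.43 to 0.52. By edgeR 0 of 6 and 0 of 13019 genes passed, with 236 genes at an unadjusted p under 0.05. With this spread between replicates the test could not tell changes of this size from none. Changes larger than these errors may have been missed as well. Within the CDS of the inputs, the slope between the last and the first of 3 parts changed after KCl by −0.75 in Herc1, −0.71 in Mycbp2, −0.64 in Birc6, −0.44 in Herc2, −0.35 in Ubr4 and 0.14 in Huwe1, against a median of −0.22 over all genes. By edgeR 0 of 6 passed, where 1.22% of 1718 genes did and 216 had an unadjusted p under 0.05. With the block Herc1 (adjusted p = 0.0311) and Mycbp2 (adjusted p = 0.0364) passed, where 2.5% of all genes did.

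Other HECT ligases that were called in the inputs after KCl were lower. In the inputs without knockdown 0 were higher and 4 lower of 23 (median −0.27, all genes −0.01), where 1176 of 13019 genes were lower, among them the Nedd4 relative Wwp1, at −2.06. In the knockdown inputs 0 were higher and 7 lower (median −0.31), against 10.3% of all genes lower, among them Hectd4 at −0.64. In the knockdown pulldowns the calls went both ways, with 3 higher, among them Nedd4l at 0.49 and Nedd4 at 0.29, and 5 lower, among them Hectd4 at −0.50, against 10.2% of all genes higher and 12% lower. Of the 11 substrates, 2 were higher and 3 lower in the inputs without knockdown (15.4% of all genes called), and 1 higher and 4 lower in the knockdown inputs (19.3%). Among them Mcl1 rose by 0.64 without knockdown and by 1.07 with it, and Map3k12 fell by 0.75 and by 0.64. The protease Htra2 rose by 0.50 and Mycn fell by 0.97 without knockdown, and Tsc2 fell by 0.56 with it. In the pulldowns 1 substrate was higher and 1 lower with TurboID-PSD95 (6.59% of all genes called), 1 higher and 2 lower with Pan-TurboID (5.03%), and 1 higher and 5 lower with knockdown (22.2%), there with Mcl1 at 0.81, Mycn at −1.10 and Myc at −0.79. Without knockdown Mcl1 was at 0.74 with TurboID-PSD95 and 0.91 with Pan-TurboID, and Wwp1 was lower at −1.94 and −2.84.

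DHPG libraries were set against resting TurboID-PSD95 libraries of the KCl experiment, where treatment and experiment cannot be told apart. All 6 genes were higher in DHPG inputs, 6 of 6 against 16.3% of 12803 genes (32.8% in either direction) by edgeR. Herc2 had 386, 380 and 413 CPM in DHPG inputs against 276, 245 and 237 CPM, a log2 difference of 0.74 ± 0.09 (SE). Huwe1 differed by 0.72 ± 0.12, Ubr4 by 0.61 ± 0.10, Herc1 by 0.58 ± 0.10, Mycbp2 by 0.55 ± 0.11 and Birc6 by 0.28 ± 0.09 (adjusted p = 0.0293). Birc6 missed the threshold when any 1 of the 3 replicate numbers was left out, and the other 5 did not. In the pulldowns 6 of 6 were higher, against 21.7% (47.7% in either direction), with Huwe1 at 1.04, Mycbp2 at 0.96, Herc2 at 0.90, Ubr4 at 0.77, Herc1 at 0.71 and Birc6 at 0.34. With the length trend taken out Birc6 was at 0.02 (adjusted p = 0.905) there. Huwe1, Herc2 and Ubr4 each lay above 97 of 109 other long genes in the inputs, and 19 of those 109 passed as higher and 29 as lower.

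The cultures of these experiments also differed in other markers. Summed astrocyte markers were 100 to 103 CPM in DHPG inputs and 400 to 861 CPM in resting TurboID-PSD95 inputs, and markers of the oligodendrocyte lineage 19.1 to 24.3 CPM and 106 to 267 CPM. Summed neuron markers were 8826 to 8970 CPM and 7656 to 8506 CPM. Their part in the higher levels of the 6 genes was not tested. Of 23 other HECT ligases 6 were higher and 3 lower in DHPG inputs, where 16.3% of all genes were higher and 2118 of 12803 lower. Among them were the neuronal ligase Hecw1 at 0.77 and Arel1 at 0.73, and Hectd2 at −1.24 and Wwp1 at −0.91.

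Knockdown of eIF4G2, a translation initiation factor of the eIF4G family, was likewise set against TurboID-PSD95 libraries without siRNA from another experiment, and the same limit holds. Of the 6 genes, 0 passed by edgeR in any of the 4 comparisons, where 3.9% of 13197 genes passed in resting inputs, 9.15% in resting pulldowns, 5.31% in depolarized inputs and 18.9% in depolarized pulldowns, and 2276, 3108, 2749 and 4464 genes had an unadjusted p under 0.05. In resting inputs the log2 differences were 0.67 in Herc2, 0.56 in Mycbp2, 0.56 in Ubr4, 0.52 in Huwe1, 0.40 in Birc6 and 0.28 in Herc1. In resting pulldowns they ran from −0.06 in Herc1 to 0.45 in Mycbp2. Mycbp2 came nearest to the threshold in depolarized pulldowns, at 0.70 (adjusted p = 0.0692), with 731 and 843 CPM against 700, 270 and 526 CPM, without overlap, as in 19% of all genes.

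The levels of the 6 genes correlated across the 14 groups, and some genes outside the 6 correlated with them as closely. As a description, the Pearson correlation of mean log2 CPM over the 14 groups was 0.914 to 0.993 in the 15 pairs of the 6 genes (median 0.959), where all groups share the difference between pulldown and input. Among 7825 genes with a mean log2 CPM of at least 4, Huwe1 was most like Ubr4 (0.991), Slc37a4 (0.988) and Nbea (0.988), and Ubr4 was most like Herc1 (0.993), Huwe1 (0.991) and Ubr3 (0.991). Herc1 was most like Dop1b (0.995), Ubr4 (0.993) and Atg9a (0.988). Herc2 was most like Vps8 (0.996), Abca3 (0.991) and Dcaf6 (0.990), Mycbp2 like Jak1 (0.991), Mtmr9 (0.989) and Pygb (0.985), and Birc6 like Cmtr1 (0.989), Ubr4 (0.981) and Slc5a3 (0.978).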

How the data were processed

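CDS, 5′ UTR and 3′ UTR footprints of 38 libraries, in 114 files, were analysed. According to the methods the authors trimmed reads, removed molecular identifiers, aligned to mm10 with Rsubread and counted with plastid. Per the file headers, 5′ ends of reads of 25 to 100 nt were counted without an offset. Strand, multiple alignment and how duplicates were found are not given in the sources used here. The authors deposited raw counts, 1 whole number for each segment, without pooling replicates. The RPKM columns beside them were not used. Of 67238 coding transcripts, 66664 (99.1%) were matched to GENCODE M21 symbols, and the longest transcript of each of 22401 genes was used.

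The test on CDS counts per gene was that of edgeR 4.0.16 under R 4.3.3 (TMM, filterByExpr, robust quasi-likelihood fit, Benjamini-Hochberg over all genes tested, FDR 0.05). All 24 libraries from the KCl experiment entered 1 model, the 6 DHPG and the 8 knockdown libraries had their own, and fits of 12 and 20 libraries compared experiments. Position along the CDS was tested on counts in the first and last of 3 parts of about equal length, with exon segments placed by midpoint, with each library as a block, over genes with a CDS of at least 3000 nt. The fits were tested on simulated data. Tables were made with Python 3.11.15 and pandas 2.3.3.

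Groups came from the labels. Each pulldown and its input came from the same monosome fraction, and those with the same number deviated together in the KCl experiment (correlations of 0.36 to 0.71 in 12 of 12 pairs, other numbers −0.57 to 0.03), so the fit with the replicate block is given beside the results it changes. The DHPG (−0.21 to 0.06) and knockdown (0.01) pairs did not. For pulldown over input and its slope the block was the lysate, that is an input and the pulldown of the same number. Resting and depolarized samples of a replicate were handled together according to the methods. Between them a block by replicate number is given, although the correlation was over 0.1 in only 4 of 16 pairs (−0.19 to 0.43).

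The 6 genes are always named, and from each list the 2 genes with the smallest p per direction among those called in a comparison, plus Eif4g2, Dlg4 and the 3 genes of most like pattern, with 1 gene that the rule names not reported here. The 6 genes and the lists were chosen with earlier results of these data known. Alternatives were other size factors, DESeq2 1.42.0, a likelihood ratio test, no filter on low counts, another transcript, leaving out the richest segment, the trend over CDS length, the mean of both inputs, 2 parts in place of 3, parts scaled by their own totals, the replicate block and leaving out replicates.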

Additional observations from a re-analysis of the deposited data

Results flagged for a closer look

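In eIF4G2 knockdown neurons 4 of the 6 genes had a lower CPM after KCl in the inputs and a higher one in the pulldowns. Every pair of libraries of the same number was on the same side within a fraction. The share of all genes with such a pattern was not counted. Taken singly, depolarized knockdown inputs lay below resting ones without overlap in 32.8% of all genes, and the pulldowns did not overlap in 55.3%. The median log2 ratio of depolarized over resting CPM, over 2 pairs, was −0.14 in the inputs and 0.28 in the pulldowns for Huwe1, and −0.19 and 0.26 for Herc1. It was −0.26 and 0.23 for Ubr4, and −0.14 and 0.073 for Birc6. The difference between the fractions was not tested in these neurons. Of the inputs only that of Ubr4 had passed edgeR's test, as had the pulldowns of Huwe1, Herc1 and Ubr4. Birc6 passed in neither fraction.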

How the results depend on the processing

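Of 965 values of called genes under other settings, 817 kept direction and call, 127 lost the call and 21 reversed. Of 344 counts of called genes among the 6, 293 stayed within 1.5 times and 51 did not.

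With the CDS length trend removed, log2 pulldown over input reversed in resting knockdown neurons to −0.48 in Birc6, −0.26 in Herc1, −0.28 in Herc2, −0.23 in Huwe1 and −0.26 in Ubr4, all 5 then called lower, after KCl with knockdown to −0.29 in Birc6, and under DHPG to −0.11 in Birc6. It left 2 of 6 called in resting TurboID-PSD95, 1 in depolarized TurboID-PSD95, 0 in resting Pan-TurboID and 1 in depolarized Pan-TurboID neurons, where 1835, 708, 391 and 336 of all genes stayed called against 3259, 1639, 1253 and 1144, and gave 1 of 6 in resting pulldowns with against without knockdown. With each of the 3 CDS parts scaled by its own total, slopes reversed to −0.23 in Ubr4 (resting TurboID-PSD95), −0.071 in Mycbp2 and −0.064 in Ubr4 (depolarized TurboID-PSD95), −0.079 in Ubr4 (depolarized Pan-TurboID), −0.81, −0.52, −0.51 and −0.93 in Herc1, Herc2, Mycbp2 and Ubr4 (DHPG), −0.57, −0.58 and −0.77 in Herc2, Mycbp2 and Ubr4 (resting knockdown) and −0.65, −0.60 and −0.67 in the same genes (depolarized knockdown). No slope called before stayed called in the KCl experiment, Birc6 included. Slopes called were then 1 of 6 (resting TurboID-PSD95) and 1 (depolarized TurboID-PSD95), both Huwe1 as lower, and 0 (depolarized Pan-TurboID), and over all genes 182, 99, 29 and 52 against 565, 526, 199 and 401 in the 4 comparisons of the KCl experiment. The cause was not tested.

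With the replicate block, calls for pulldown over input went from 3 to 6 of 6 in resting Pan-TurboID neurons, and all genes called in the 4 comparisons were 5452, 4503, 4282 and 4168. Slopes called went from 2 to 4 (resting TurboID-PSD95), 3 to 5 (depolarized TurboID-PSD95) and 0 to 2 (resting Pan-TurboID). Between resting and depolarized libraries the block gave 1 of 6 for the KCl response of inputs, Herc2 at −0.61 ± 0.18 (SE, adjusted p = 0.0209), and 2 for its slope. It moved no other count of the 6 by over 1.5 times.

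Without a filter, calls were 1 (resting Pan-TurboID) and 3 (depolarized Pan-TurboID) for pulldown over input, 2 for the KCl response of knockdown pulldowns, 1 for knockdown against none in depolarized pulldowns, and 1 and 1 for the slopes of resting TurboID-PSD95 and resting Pan-TurboID. The likelihood ratio test gave 5 for resting Pan-TurboID, 1 for its slope and 1 for the slope of the KCl response, and DESeq2 gave 6 for resting Pan-TurboID, with 1908 and 2111 of all genes called against 1253. With 2 parts in place of 3, slopes called were 1 (resting TurboID-PSD95), 1 (depolarized Pan-TurboID) and 2 (KCl response). Without the richest segment the slope of resting Pan-TurboID gave 1.

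Leaving out 1 replicate number, calls for pulldown over input ran from 0 to 6 in each of the 4 comparisons of the KCl experiment, with 0 in all 4 without replicate 3 (0, 3, 0 and 0 of all genes), and for the KCl response of inputs from 0 to 1. Slopes ran from 0 to 1 (resting TurboID-PSD95), 0 to 2 (depolarized TurboID-PSD95), 0 to 1 (resting Pan-TurboID), 0 to 3 (depolarized Pan-TurboID) and 3 to 5 (depolarized knockdown). Leaving out single knockdown libraries, 0 to 4 passed for the KCl response of pulldowns and 2 to 3 for that of inputs, with the lone library of a group assumed to vary like the others. With 3 or 2 replicates per group, SEs of 0.21 to 0.52 on the log2 scale limit what the KCl experiment can show.

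Over all genes, further counts of calls that moved by over 1.5 times were, with DESeq2, 2513 against 1639 and 2186 against 1144 (pulldown over input, depolarized TurboID-PSD95 and Pan-TurboID), 1326 against 858 and 1052 against 655 (KCl response of the 2 pulldowns) and 896 against 515 and 1186 against 701 (knockdown, resting and depolarized inputs). The likelihood ratio test gave 1826, 783 and 1175 for depolarized Pan-TurboID and the knockdown inputs, and 344 against 199 and 54 against 21 for the slopes of resting Pan-TurboID and of the KCl response. Without the richest segment, counts were 669 (resting Pan-TurboID), 520 (KCl, TurboID-PSD95 pulldowns), 1524 against 2365 (KCl, knockdown inputs), 333 (knockdown, resting inputs) and 7 (KCl slope). No filter gave 326 for the slope of resting Pan-TurboID, and the block gave 984 for KCl in Pan-TurboID pulldowns and 797, 606, 723 and 43 for slopes. Own totals gave 476 against 913 and 479 against 880 for knockdown slopes. Leaving out 1 replicate, counts ran from 0 to 2900 for pulldown over input and from 74 to 2095 for the KCl response in the KCl experiment, from 1181 to 2837 for KCl in knockdown inputs, from 2553 to 2909 for DHPG inputs against 4199, and from 58 to 2274 for knockdown against none.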

Other observations

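Among the other genes with a CDS of at least 9000 nt, those called in pulldown over input were mostly higher in the knockdown and DHPG experiments. Of 106 tested under DHPG, 97 were higher and 3 lower by edgeR (median log2 difference 1.14), where 4967 of all 12273 genes were higher and 4821 lower. The higher long genes were led by Map1a, a microtubule-associated protein, at 2.07, and Dync1h1, the heavy chain of cytoplasmic dynein, at 1.66. The lower ones included the matrix proteoglycan gene Vcan, at −0.78, and Golgb1, a Golgi protein, at −0.70. Of 107 in resting knockdown neurons, 70 were higher and 11 lower (median 1.02), against 2704 higher and 2867 lower of 12239 genes, with Map1a at 3.01 and the histone methyltransferase gene Kmt2a at 3.09, and with the matrix genes Hspg2 at −1.10 and Col12a1 at −1.32.

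After KCl in knockdown inputs, Dmxl2 at −0.92 and Pclo, which encodes the presynaptic scaffold Piccolo, at −0.83 were lower, and Plec, the cytoskeletal linker plectin, at 1.12 was higher. Without knockdown, the calcium release channel gene Ryr2 was lower after KCl at −1.27 in the inputs, −1.14 in TurboID-PSD95 pulldowns and −1.07 in Pan-TurboID pulldowns. In DHPG inputs set against resting inputs of the KCl experiment, the proliferation marker Mki67 was lower at −2.86.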
